A study of Mus musculus with 6 samples.

Results

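The tumour necrosis factor (TNF) superfamily was examined in mouse lung as a set of 51 genes out of 23194 in the deposited table. Members were the protein-coding genes named Tnfsf, Tnfrsf or Traf with a number, together with Tnf, Lta, Ltb, Ltbr, Fas, Fasl, Cd40, Cd40lg and Cd27. Cd70, which the rule also names, is not listed in the deposited table and so was not analysed. The rule also takes in 3 proteins that bind TRAFs without being TRAFs (Traf3ip1, Traf3ip2 and Traf3ip3) and the read-through transcript Tnfsf12Tnfsf13. All animals were adult wild-type C57BL/6 mice, and RNA came from the left lung. One group of 3 lungs was naive. In the other group of 3 lungs, here called injured, a ligature closed the artery of the left lung for 4 h, and blood flow was then let back for 24 h. The 4 h are those of the sample titles, and the protocol text also names a longer time. The labels describe no sham operation on the naive mice, so effects of the operation and of ischemia and reperfusion cannot be told apart.

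TNF ligands are mostly trimeric membrane proteins, some of which are cut off the cell and act at a distance. Their receptors fall into those with a death domain, which can start caspase-driven or necroptotic death, those that recruit TRAF adaptors and signal to NF-κB and MAP kinases, and decoys that bind ligand without signalling. In the lung, TNF is made mainly by macrophages and other leukocytes and is known for activating endothelium and drawing in neutrophils. Its receptor Tnfrsf1a is carried by most cells, while Tnfrsf1b is found mainly on leukocytes and endothelium.

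Of the 51 genes, 45 had enough counts to be tested by edgeR's quasi-likelihood test over all 15486 genes that passed the filter. At an adjusted p under 0.05, 4 of the 45 rose in injured lungs and 0 fell. The genes that rose were the ligands Tnfsf14 and Tnfsf9 and both receptors for TNF, Tnfrsf1b and Tnfrsf1a. That is 8.89% of the members tested, where 2.16% of all genes tested were called higher and 0.956% lower. At an unadjusted p under 0.05 there were 7 members with a higher and 3 with a lower level, where the shares of all genes were 9.06% and 7.66%. DESeq2 called 7 members higher and 1 lower, with 3.61% and 2.49% of all genes, and limma-voom called 4 higher and 0 lower, with 1.99% and 0.878%. Without a low-count filter, edgeR called 7 higher and 0 lower (1.98% and 1.16% of all genes), and with the replicate number as a block 4 higher and 1 lower (2.67% and 1.34%). The median log2 fold change of the members was 0.04, beside 0.00 for all genes tested. Leaving out 1 lung changed the number of rises to between 1, when naive replicate 2 was dropped, and 5, when injured replicate 2 was. Dropping injured replicate 1 gave 2 rises.

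Gene counts per library ran from 18913487 to 34986276. Lung-defining transcripts (Sftpc, Sftpb, Sftpd, Scgb1a1, Ager and Foxj1) were present in every library, with 0 of 6 called by edgeR, 1 at an unadjusted p under 0.05 and 1 by DESeq2. Markers of some kinds of blood cell differed between the groups. Neutrophil markers were called higher for 8 of 12 genes (11 at an unadjusted p under 0.05, 9 by DESeq2). Their summed level was 71.7 to 102.2 CPM (counts scaled to a common library total) in the naive group and 801 to 1441 CPM in the injured group. Monocyte and macrophage markers were called higher for 8 of 11 genes. Their sums were 1118 to 1311 CPM in the naive group and 1653 to 1772 CPM in the injured group. The largest part of these sums came from Fn1, which edgeR did not call (adjusted p = 0.0987). Naive lungs averaged 757 CPM for this gene, and injured lungs averaged 1039.5 CPM. T cell markers were called lower for 4 of 12 genes (10 at an unadjusted p under 0.05, 6 by DESeq2). Their sums were 109.4 to 119 CPM in the naive group and 63.9 to 72.1 CPM in the injured group. Dendritic cell markers were called lower for 1 of 9 genes (6 at an unadjusted p under 0.05, 5 by DESeq2). Their sums were 136.53 to 150.45 CPM in the naive group and 106.7 to 112 CPM in the injured group. Zbtb46 and Clec9a made the largest parts, with naive means of 45.3 and 39.4 CPM and injured means of 38.1 and 36.9 CPM. Neither was called by edgeR. NK cell markers (8 tested) and mast cell and basophil markers (4 tested) included 0 calls by edgeR and 0 by DESeq2. The NK cell markers had log2 fold changes from -0.87 to -0.09, with 1 at an unadjusted p under 0.05. For the mast cell and basophil markers that count was 0. Endothelial markers were called for 0 of 7 genes (1 at an unadjusted p under 0.05, 0 by DESeq2). Their sums were 4622.5 to 4992 CPM in the naive group and 3788 to 4714.5 CPM in the injured group. No marker of these lists was at 0 throughout a group. Several TNF family genes are expressed by these cells, and the part of cell numbers in the values below was not tested. In bulk lung RNA, fewer cells of a type and less RNA per cell cannot be told apart.

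The promoters of Tnfsf14, Tnfrsf1b and Tnf are shown because they are 2 of the called genes and the founding ligand, and because their RefSeq windows lie wholly upstream of the gene as the deposited table places it. The stretches are from GRCm38.p6 (the build also called mm10), on the minus strand, read toward the gene. They cover chr17:57194190-57194431 for Tnfsf14, chr4:145246871-145247120 for Tnfrsf1b and chr17:35202008-35202257 for Tnf. The Tnfsf14 stretch holds 242 bases and the others 250 each. Capitals mark matches on either strand to the AP-1 motif TGANTCA or to the NF-κB consensus GGGRNNYYCC. In these motifs R is A or G, Y is C or T and N is any base.
Tnfsf14: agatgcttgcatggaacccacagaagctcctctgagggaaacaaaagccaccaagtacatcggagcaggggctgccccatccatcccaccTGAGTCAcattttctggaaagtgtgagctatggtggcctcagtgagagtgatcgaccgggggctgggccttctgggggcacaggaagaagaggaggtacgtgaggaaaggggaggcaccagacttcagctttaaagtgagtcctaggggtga
Tnfrsf1b: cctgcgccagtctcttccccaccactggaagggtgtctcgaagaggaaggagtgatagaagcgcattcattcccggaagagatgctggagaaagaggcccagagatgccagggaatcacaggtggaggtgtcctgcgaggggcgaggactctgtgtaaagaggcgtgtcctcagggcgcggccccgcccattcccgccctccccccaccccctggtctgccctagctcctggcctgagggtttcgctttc
Tnf: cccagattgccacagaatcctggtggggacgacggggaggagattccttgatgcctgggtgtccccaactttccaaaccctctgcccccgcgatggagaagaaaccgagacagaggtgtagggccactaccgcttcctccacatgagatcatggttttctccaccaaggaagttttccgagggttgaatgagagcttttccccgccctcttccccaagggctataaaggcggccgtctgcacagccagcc
Tnfsf14 held 1 AP-1 match and no NF-κB match, and the other two held neither. The AP-1 motif was present in 6.75% and the NF-κB consensus in 7.25% of 32851 RefSeq windows covering the 250 bases before a start. Among 44 such windows of 40 members, 6 held the AP-1 motif (Fas, Tnfrsf8, Tnfrsf9, Tnfsf13, Tnfsf13b and Tnfsf14) and 5 the NF-κB consensus (Ltb, Tnfrsf25, Tnfrsf8, Tnfrsf9 and Traf3). These are letter matches in short windows and do not show binding.

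Among the ligands, 2 of 11 tested rose and 0 fell. Tnfsf14 encodes LIGHT, a ligand of Ltbr and Tnfrsf14 made by activated T cells and by myeloid cells. It measured 1.38, 1.59 and 1.70 CPM in naive replicates 1 to 3 and 7.39, 5.49 and 4.18 CPM in injured replicates 1 to 3. The groups were well apart, with the lowest injured lung above every naive lung. The log2 fold change was 1.87 ± 0.27 (SE), a 3.64-fold rise with a 95% interval of 2.40 to 5.55 (edgeR adjusted p = 0.00714). The call held under every alternative tried, and with 1 lung left out the adjusted p reached at most 0.0400, without naive replicate 2. The gene (ENSMUSG00000005824) lies on chromosome 17 from 57189492 to 57194189 in the table's mm10 coordinates.

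Tnfsf9, the ligand of the co-stimulatory receptor Tnfrsf9, is made by antigen-presenting cells. It stood at 3.33, 2.43 and 2.31 CPM in the naive lungs and at 6.40, 6.51 and 6.41 CPM in the injured lungs. The 3 injured lungs were nearly identical, and all lay above the naive lungs. The log2 fold change was 1.26 ± 0.21, or 2.39-fold with an interval of 1.72 to 3.32 (edgeR adjusted p = 0.0138). Leaving out naive replicate 2 ended the call (log2 fold change 1.19, adjusted p = 0.0734), as did leaving out injured replicate 1 (1.26, adjusted p = 0.0582). In GENCODE M21 an exon of Tnfsf9 (ENSMUSG00000035678) overlaps Gm11110 on the opposite strand. The strand setting of the counting is not given in the sources used here, and Gm11110 itself measured 0.688 to 0.849 CPM in the naive group and 0.645 to 1.10 CPM in the injured group. Tnfsf9 (chromosome 17, 57105385 to 57107757) and Tnfsf14 are neighbours, within a stretch of 88.8 kb. Of 9 places where members lie within 100 kb of one another, this was the only one with more than 1 called member.

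Tnf, the founding cytokine of the family, was scarce. It had 0.706, 0.582 and 0.585 CPM in the naive lungs and 2.88, 1.06 and 2.74 CPM in the injured lungs. Injured replicate 2 was the lowest of its group but was still above the naive lungs. The log2 fold change was 1.82 ± 0.43 (interval 0.87 to 2.78), and the adjusted p of 0.0544 missed the threshold in edgeR. It passed in edgeR without injured replicate 2 (log2 fold change 2.16, adjusted p = 0.0185), with no filter on low counts (adjusted p = 0.0141), with the replicate block (adjusted p = 0.0484) and in DESeq2 (adjusted p = 0.00540). Limma-voom gave an adjusted p of 0.114. The gene rested on 52 counts in the naive group and 147 in the injured group. In the table Tnf (ENSMUSG00000024401) lies on chromosome 17 from 35199381 to 35202007, between Ltb and Lta. Ltb, which joins lymphotoxin alpha in a membrane complex that binds Ltbr, was called neither way (log2 fold change -0.18 ± 0.13, adjusted p = 0.538), and Lta, with 28 naive and 14 injured counts, was not tested.

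Tnfsf10, which encodes the death ligand TRAIL, was the most abundant ligand per length, at 42.6 ± 8.71 FPKM (SD, n = 3) in naive and 28.9 ± 6.25 FPKM in injured lungs. The lungs read 238, 235 and 166 CPM in the naive group and 136, 178 and 118 CPM in the injured group. Naive replicate 3 lay below injured replicate 2, so the groups overlapped. The log2 fold change was -0.57 ± 0.19 (edgeR adjusted p = 0.179), and it was called lower by DESeq2 (adjusted p = 0.0273) and with the replicate block (adjusted p = 0.0239). Its agonist receptor in the mouse, Tnfrsf10b, had a fitted log2 change of -0.56 ± 0.27 (adjusted p = 0.331), and Tnfrsf11b, or osteoprotegerin, a soluble decoy for TRAIL and RANKL, had -0.35 ± 0.19 (adjusted p = 0.387). None of these 3 genes passed edgeR's test on group alone.

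Tnfsf15, known as TL1A and made by endothelial and myeloid cells, measured 3.73, 3.44 and 3.34 CPM in the naive lungs and 1.89, 2.70 and 1.39 CPM in the injured lungs. Every injured lung was lower, yet the log2 fold change of -0.81 ± 0.28 was not called (adjusted p = 0.183) in edgeR or under any alternative. Its receptor Tnfrsf25, a death-domain receptor of T cells, had a log2 fold change of -0.65 ± 0.39 (adjusted p = 0.461) with 125 naive and 61 injured counts. Tnfsf13b (BAFF, the B cell survival factor) was not called, and the 95% interval of its log2 fold change ran from -0.19 to 0.31. Its level was 23.4 ± 1.99 FPKM in naive and 24.6 ± 2.01 FPKM in injured lungs.

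Tnfsf12, which encodes TWEAK, had an interval of -0.41 to 0.19, and Tnfsf13, which encodes APRIL, one of -0.95 to 0.35. These 2 genes share exons with the read-through Tnfsf12Tnfsf13 (32 naive and 22 injured counts, log2 fold change -0.23 ± 0.82), so how reads were split among them is uncertain. Fasl, the death ligand of cytotoxic lymphocytes, and Tnfsf8, the ligand of Tnfrsf8 on T cells, were also tested and not called. Both were under 1 CPM on average in both groups. Their log2 intervals were wide, -0.54 to 1.18 and -0.95 to 0.94, so moderate changes were not detectable at this depth. Cd40lg, the T cell signal to Cd40, had 42 naive and 20 injured counts, and Tnfsf11, or RANKL, had 24 and 33. Tnfsf4 and Tnfsf18, co-stimulatory ligands of antigen-presenting cells, had 4 naive and 3 injured counts each. These 4 ligands, together with Lta and the plasma cell receptor Tnfrsf17 (13 and 7 counts), were the 6 members not tested.

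**Figure D1:**
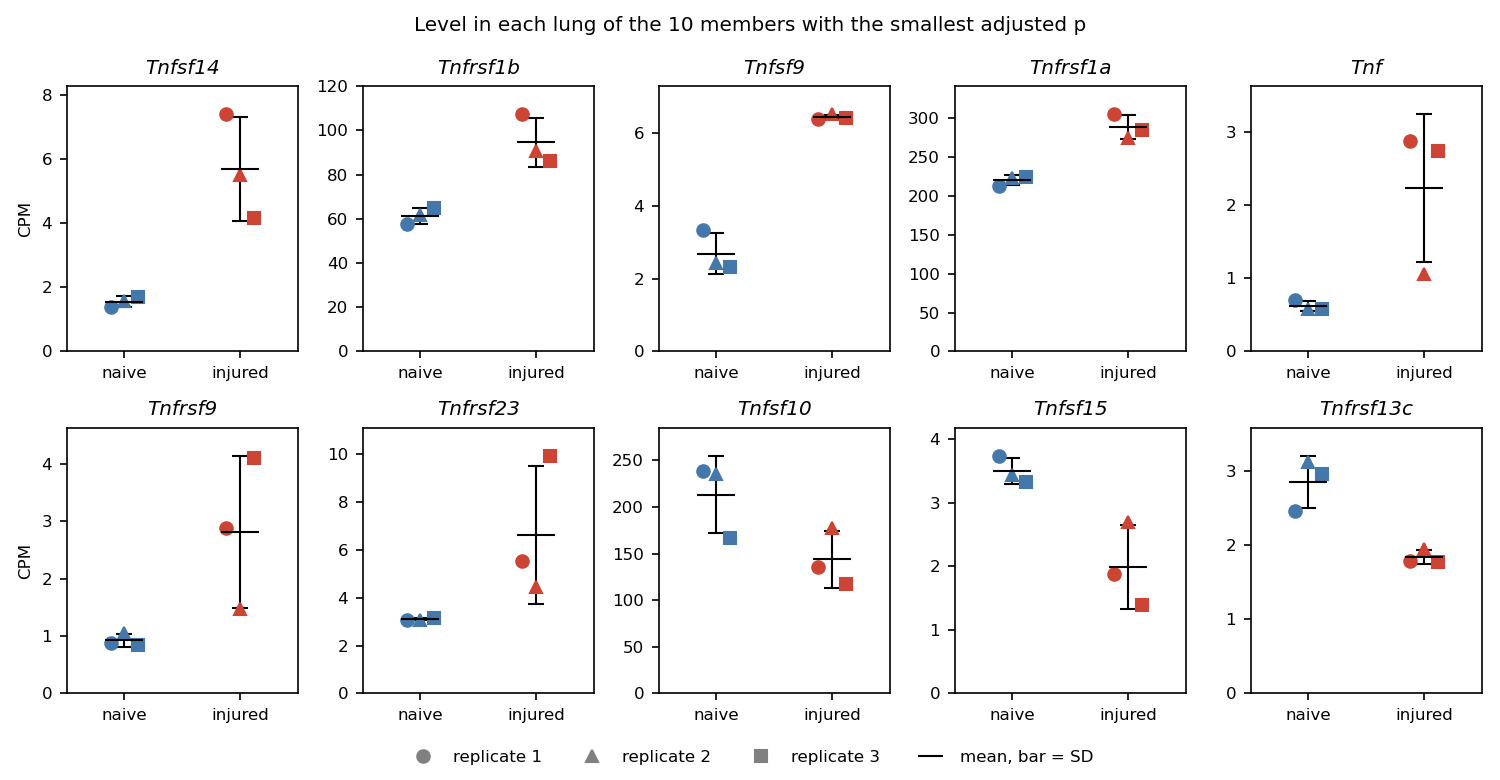
Level of 10 members in each lung in CPM, naive in blue and injured in red, with a symbol per replicate number. Whether the numbers pair lungs across groups is not known. Black bars are the mean and SD of 3 lungs. The 3 injured lungs lie above all naive lungs for Tnfsf14, Tnfrsf1b, Tnfsf9, Tnfrsf1a, Tnf, Tnfrsf9 and Tnfrsf23, below them for Tnfsf15 and Tnfrsf13c, and overlap them for Tnfsf10.

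Both TNF receptors rose. Tnfrsf1a, the death-domain receptor that most cells carry, was the most abundant member per length, at 101.6 ± 2.09 FPKM in naive and 134 ± 7.09 FPKM in injured lungs. It read 213, 223 and 225 CPM in the naive lungs and 305, 275 and 286 CPM in the injured lungs, with no overlap. Its fitted log2 fold change was 0.39 ± 0.08, or 1.31-fold with an interval of 1.15 to 1.49 (edgeR adjusted p = 0.0364). The call was lost when any 1 of the 6 lungs was left out, with an adjusted p of 0.0582 without naive replicate 3 up to 0.155 without injured replicate 1 and log2 fold changes of 0.35 to 0.42. It was also lost with the replicate block (adjusted p = 0.0615). Tnfrsf1a (ENSMUSG00000030341) lies on chromosome 6 from 125349362 to 125362484, beside Ltbr and Cd27.

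Tnfrsf1b, the receptor that binds TRAF2 directly and lacks a death domain, stood at 57.7, 61.8 and 64.9 CPM in the naive lungs and at 107.2, 90.5 and 86.1 CPM in the injured lungs. Again the lowest injured lung was above the highest naive lung. The fit gave a log2 fold change of 0.62 ± 0.10, or 1.54-fold with an interval of 1.31 to 1.81 (edgeR adjusted p = 0.0129). The call was lost only without naive replicate 2 (adjusted p = 0.0657). Tnfrsf1b (ENSMUSG00000028599) lies on chromosome 4 from 145213463 to 145246870.

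Per length, Tnfrsf1b was the minor of the 2 receptors. The ratio of its FPKM to that of Tnfrsf1a, a measure chosen after the values were seen, was 0.153, 0.156 and 0.163 in the naive lungs and 0.198, 0.186 and 0.170 in the injured lungs. All 3 injured ratios exceeded the naive ones (exact two-sided permutation p = 0.1, the smallest possible with 3 lungs against 3). The mean log2 difference of 0.23 stayed between 0.18 and 0.29 with any 1 lung left out.

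Of the other death-domain receptors, none of 4 was called by edgeR, at an unadjusted p of 0.0628 or more. By DESeq2 none of the 4 was called either. Fas, the receptor for Fasl, had 29.0 ± 4.12 FPKM in naive and 31.4 ± 2.13 FPKM in injured lungs, and Tnfrsf21, or death receptor 6, had 15.4 ± 1.14 and 16.0 ± 1.04 FPKM. The intervals of the log2 fold change were -0.18 to 0.37 for Fas and -0.18 to 0.26 for Tnfrsf21.

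Among receptors of the TRAF-binding kind, 1 of 14 tested was called, Tnfrsf1b. Tnfrsf9, the co-stimulatory receptor of activated T and NK cells that binds Tnfsf9, had 0.874, 1.06 and 0.849 CPM in the naive lungs and 2.88, 1.46 and 4.09 CPM in the injured lungs. The injured lungs were all higher and differed among themselves by more than the naive lungs did. Its log2 fold change of 1.61 ± 0.39 missed the threshold in edgeR (adjusted p = 0.0636). It passed without injured replicate 2 (log2 fold change 1.92, adjusted p = 0.0249), with no filter on low counts (adjusted p = 0.0175) and in DESeq2 (adjusted p = 0.00724). The ligand and the receptor of this pair therefore both had higher means, with the ligand called and the receptor not.

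Tnfrsf13c, the BAFF receptor of mature B cells, measured 2.45, 3.12 and 2.96 CPM in the naive lungs and 1.79, 1.95 and 1.77 CPM in the injured lungs. All injured lungs were lower, but the log2 fold change of -0.63 ± 0.24 was not called (edgeR adjusted p = 0.234). B cell markers were called by edgeR for 0 of 9 genes (4 at an unadjusted p under 0.05, 1 by DESeq2), with sums of 123 to 152 CPM in the naive group and 108.1 to 116 CPM in the injured group, and their part in the Tnfrsf13c values was not tested. Tnfrsf13b, or TACI, the other BAFF receptor read here, had an interval of -0.38 to 0.46 for its log2 fold change. Among receptors for T cell co-stimulation, Tnfrsf4 (OX40), Tnfrsf8 and Tnfrsf18 had fitted log2 changes of 0.79 ± 0.35, 0.88 ± 0.60 and -0.03 ± 0.39, none of them called, with 43 to 87 counts over the naive libraries. Cd27, carried by naive and memory T cells, had -0.34 ± 0.26 (adjusted p = 0.568).

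Ltbr, the lymphotoxin beta receptor of stromal and myeloid cells and a receptor for Tnfsf14, was the second most abundant member per length. It measured 53.2 ± 6.23 FPKM in naive and 61.3 ± 4.50 FPKM in injured lungs (log2 fold change 0.19 ± 0.11, adjusted p = 0.452). Tnfrsf14, or HVEM, the other receptor for Tnfsf14, was at 10.2 ± 0.527 and 10.1 ± 2.55 CPM, with an interval of -0.43 to 0.41. Neither receptor of Tnfsf14 was called. Tnfrsf12a, the receptor for Tnfsf12 induced by tissue injury, had 20.8 ± 5.92 and 25.1 ± 4.59 FPKM (adjusted p = 0.659). Cd40, on B cells and macrophages, had an interval of -0.40 to 0.31, Tnfrsf19, or TROY, one of -0.18 to 0.27 and Tnfrsf11a, or RANK, one of -0.04 to 0.69.

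**Figure D2:**
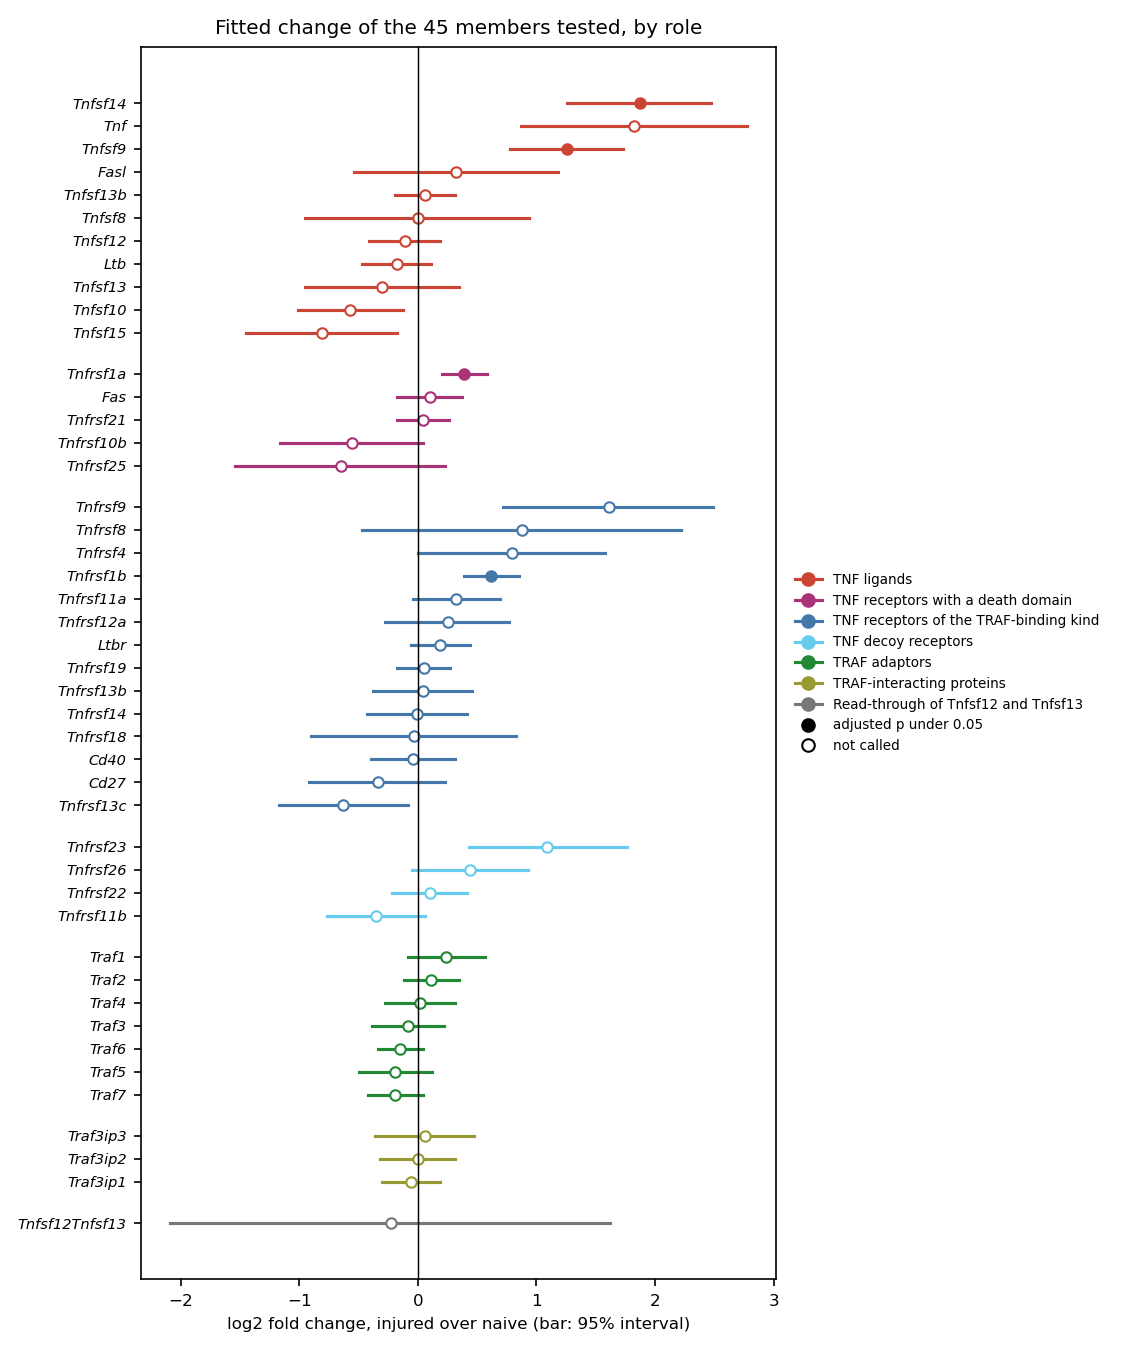
Fitted log2 fold change (injured over naive) of the 45 members tested, grouped by role; points are edgeR's estimates, bars 95% intervals, and filled points are called at an adjusted p under 0.05. The 4 filled points, Tnfsf14, Tnfsf9, Tnfrsf1a and Tnfrsf1b, all lie to the right of 0, and the 7 TRAF adaptors lie between -0.19 and 0.24.

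None of the 4 genes listed here as decoy receptors (Tnfrsf11b, Tnfrsf22, Tnfrsf23 and Tnfrsf26) was called by edgeR (1 at an unadjusted p under 0.05, 1 by DESeq2). Mouse Tnfrsf22 and Tnfrsf23 are decoys for TRAIL that lie beside Tnfrsf26 within 78.2 kb of chromosome 7. Tnfrsf23 read 3.09, 3.07 and 3.16 CPM in the naive lungs and 5.56, 4.43 and 9.91 CPM in the injured lungs. The naive lungs were close together, and injured replicate 3 was the highest by a wide margin. The fit gave a log2 fold change of 1.09 ± 0.29 (edgeR adjusted p = 0.0872), and without injured replicate 3 it was 0.68 (adjusted p = 0.205). DESeq2 (adjusted p = 0.0121) and the fit with no filter (adjusted p = 0.0297) called it higher. Tnfrsf26 and Tnfrsf22 had log2 fold changes of 0.44 ± 0.22 and 0.10 ± 0.14. An exon of both Tnfrsf23 and Tnfrsf26 overlaps an opposite-strand gene, E230032D23Rik, which the table does not list.

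The 7 TRAF adaptors, which carry receptor signals to NF-κB and MAP kinases, included 0 calls, with 0 at an unadjusted p under 0.05, 0 by DESeq2 and 0 by limma-voom. Per length the most abundant was Traf7, at 27.6 ± 0.944 FPKM in naive and 24.5 ± 2.97 FPKM in injured lungs. Traf1, itself an NF-κB target, had the highest fitted log2 change of the 7, 0.24 ± 0.14 (adjusted p = 0.447), and Traf5 and Traf7 had the lowest, both -0.19. Traf6, the adaptor of Toll-like and IL-1 receptors as well as Cd40, had -0.15 ± 0.08 (adjusted p = 0.414) and was lower in each injured lung than in any naive lung. Traf2 and Traf3, which hold the NF-κB-inducing kinase in check, had intervals of -0.12 to 0.35 and -0.39 to 0.22, and Traf4 one of -0.28 to 0.31. All 7 intervals lay within a 2-fold change in either direction. Among the TRAF-binding proteins, Traf3ip1, a part of the cilium, Traf3ip2, the adaptor Act1 of the IL-17 receptor, and Traf3ip3 had log2 fold changes of -0.06, 0.00 and 0.06.

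**Figure D3:**
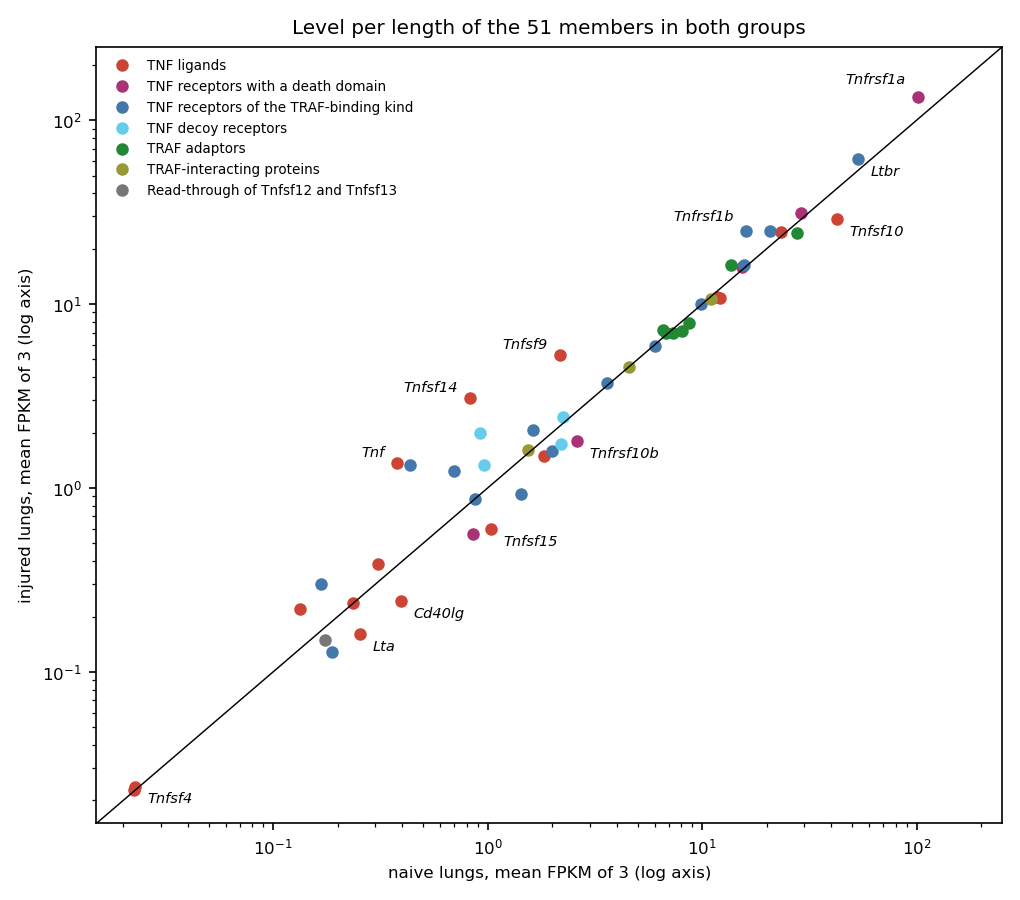
Mean FPKM of the 51 members in naive (horizontal) and injured (vertical) lungs on log axes, coloured by role, with the line of equal level. Tnfrsf1a and Ltbr are the most abundant members in both groups, Tnfsf14, Tnfsf9 and Tnf lie above the line, and Tnfsf10 and Tnfsf15 below it.

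Every lung of the injured group was above every naive lung for 10 of the 45 members tested and below for 4. The share of all genes tested was 12.3% for above and 10.6% for below. Besides the 7 named for the ligands and receptors, the 10 were made up of Tnfrsf4, Tnfrsf11a and Tnfrsf26. The 4 lower genes were Tnfsf15, Tnfrsf13c, Tnfrsf11b and Traf6. For 25 members the fitted log2 change was under 0.25 in size, and for 31 the 95% interval excluded a change of 2-fold or more in either direction. In 12 members the mean was below 1 FPKM in both groups.

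The genes through which these receptors signal were read from lists of the pathway. Among 18 components of the receptor complexes and of death signalling, which include Tradd, Ripk1, Casp8 and the deubiquitinase Tnfaip3, edgeR called 0 (2 at an unadjusted p under 0.05). Every injured lung was above every naive lung for 4 of the 18 and below for 0, where the shares of all genes tested were 12.3% and 10.6%. The largest fitted log2 change was that of Mlkl, 0.42 ± 0.17 (edgeR adjusted p = 0.257). The smallest adjusted p was that of Tnip1, a binding partner of Tnfaip3, with means of 47.7 ± 6.43 and 60.2 ± 3.84 CPM in naive and injured lungs (log2 fold change 0.34 ± 0.11, adjusted p = 0.167). Among 14 genes of the NF-κB kinase route 0 were called (1 at an unadjusted p under 0.05), led by Nfkb2 of the non-canonical route (log2 fold change 0.30 ± 0.10, adjusted p = 0.141). Among 4 genes for shedding of TNF and its receptors 0 were called, also at an unadjusted p under 0.05. The first of these by adjusted p was Rhbdf1 (log2 fold change -0.16 ± 0.09, adjusted p = 0.417). The medians of the 3 lists, 0.02, -0.01 and -0.05, were close to that of all genes tested. DESeq2 and limma-voom also called 0 genes in each of the 3 lists. Of all genes tested, edgeR called 2.16% higher and 0.956% lower, so 0 calls do not set lists this short apart from other genes.

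In the authors' deposited table, 47 members had an adjusted p, of which 7 were called higher and 1 lower at 0.05, where the same table calls 3.61% of genes higher and 2.54% lower. The 7 were Tnfsf14, Tnfsf9, Tnfrsf1b, Tnfrsf1a, Tnf, Tnfrsf9 and Tnfrsf23, and the lower gene was Tnfsf10. The authors' deposited table gives log2 fold changes of 1.25 for Tnfsf14, 0.95 for Tnfsf9 and 0.82 for Tnf, nearer to 0 than edgeR's values for these genes. DESeq2 as run here on the same counts gave 1.86, 1.25 and 1.83 and called the same members. Its adjusted p for Tnfsf14 was 1.93e-07, beside 1.65e-07 in the authors' comparison. The calls are therefore not separate evidence, and why the fold changes differ was not tested.

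**Figure D4:**
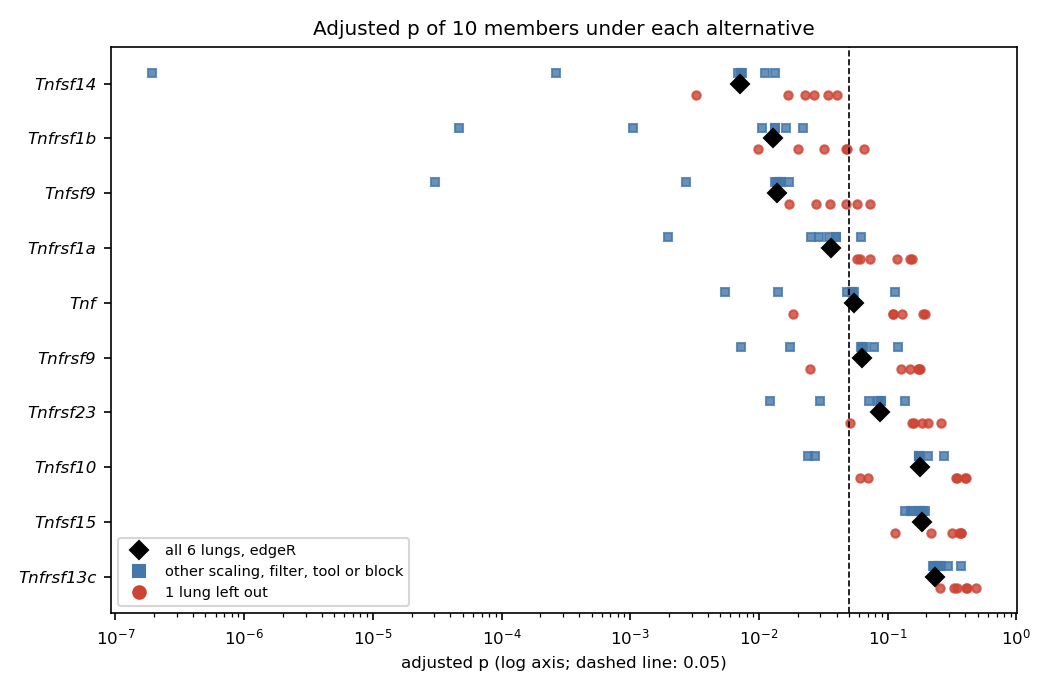
Adjusted p (log axis) of 10 members with all lungs by edgeR (black), under another scaling, filter, tool or the replicate block (blue) and with 1 lung left out (red); the dashed line is 0.05. Only Tnfsf14 stays left of the line in every setting, and Tnfsf15 and Tnfrsf13c stay right of it in every setting.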

How the data were processed

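RNA sequencing counts of 6 left lungs, 3 naive and 3 injured, were analysed. The authors deposited 1 table with raw read counts per gene, normalized counts (signal, equal to counts over 1 factor per library), FPKM values, and their own comparison as log2 fold changes and p-values, raw and adjusted, per the file headers. STAR, HTSeq, DESeq2, edgeR, STAR-Fusion and the build mm10 are listed per the submitters' processing notes. Tool versions and the counting's strand setting: not given in the sources used here. No per-library value column was left unused.

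Genes passing edgeR's filterByExpr (15486 of 23194) were compared in R 4.3.3 with TMM scaling and edgeR 4.0.16's robust quasi-likelihood test on a model of group alone, two-sided, adjusted by Benjamini-Hochberg over all genes tested. CPM are counts over TMM-scaled library sizes. SE is the log2 fold change over the root of F. The 95% intervals use the test's total degrees of freedom, residual plus those gained by sharing information across genes. Levels of different genes were compared only in the deposited FPKM. Tested on 1 simulated draw, with changes of 2-fold or more in genes above 1 CPM, the procedure recovered most changed genes. The share of false calls among its calls, 9.19%, was above the adjusted p threshold. Some calls here may therefore be false at more than that rate. Smaller changes, such as that of Tnfrsf1a, were not simulated. The members and gene lists were chosen with earlier results of these data known. Values in every lung are given for called members, Tnf and the 6 uncalled members with the smallest adjusted p. Also run were the tools DESeq2 1.42.0 and limma-voom (limma 3.58.1), scaling by DESeq2's size factors or by library size, no filter, 1 CPM in 3 samples, the replicate number as a block and each lung left out. Promoters are from RefSeq (GRCm38.p6) and exon overlaps from GENCODE M21. Besides replicate numbers, the labels give library names, which start with N for naive and with XW for injured lungs. What these letters stand for is not given. The letters coincide with the groups, so any difference in handling that they mark cannot be told apart from the injury. The labels say no more of the single lungs. The p-values set the difference between the groups against the spread between these lungs, estimated with information shared across genes.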

Additional observations from a re-analysis of the deposited data

How the results depend on the processing

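Of the 4 rises, the same 4 genes were called with DESeq2's size factors, library size alone, the 1 CPM filter and limma-voom. DESeq2 called 7 members higher and 1 lower, and with no filter on low counts 7 were called higher. With 1 lung left out, 1 to 5 members were called higher and 0 lower. Over all genes, edgeR called 334 higher and 148 lower. DESeq2 called 578 higher and 398 lower, and with no filter 269 were lower. With 1 lung left out, 145 to 333 genes were higher and 48 to 146 lower. For the 10 members with values in every lung, no alternative reversed a direction.

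With the replicate block 4 members were higher, Tnf taking the place of Tnfrsf1a, and 1, Tnfsf10, was lower, and 413 and 208 of all genes were called. Same-numbered lungs correlated at 0.077, -0.085 and 0.154 in their deviations from the group means. Naive replicate 1 correlated best with injured replicate 2 (0.282). These correlations, from 3 lungs a group, depend on one another and cannot decide whether the numbers pair the lungs. Where the alternatives above differ, the cause was not tested. With 3 lungs a group, members with few counts, such as Tnfrsf8 and Fasl, have intervals that reach a 2-fold change.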
